A study of Caenorhabditis elegans with 2 samples.

Results

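The regions described here are the DAF-16 ChIP-seq peaks of Caenorhabditis elegans that carry the DAF-16 binding element, the 7-base consensus site of FOXO factors. They are the nuclear peaks that passed a threshold on IDR (irreproducible discovery rate, a measure of how well peak ranks agree between replicates) with an exact TGTTTAC, or its reverse complement GTAAACA, wholly within 100 bp of the summit. There were 228 such peaks of 2540 nuclear IDR peaks (8.98%, Wilson 95% interval 7.93 to 10.2), and of 2563 IDR peaks with the mitochondrial ones included. The rule used sequence and the IDR list and no signal value beyond that list.

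The study precipitated GFP-tagged DAF-16 from sonicated chromatin of whole L4 hermaphrodites with an antibody given as anti-GFP, and 2 biological replicates formed 1 group. The animals were of strain ZM7247, which carries daf-16(mu86), daf-2(e1370) III and hpSi4 II (Pmyo-3 GFP::daf-16a), and were collected 54 h after synchronisation as starved L1 larvae. Both replicates therefore shared the daf-16 mutation, the reduced insulin receptor allele and the transgene, and the tagged isoform was driven by the promoter of myo-3, a myosin gene of body wall muscle. No other genotype and no expression data were analysed here, each sample was a pool of whole animals, and a note in the labels places the tag at the C terminus although the transgene is written GFP::daf-16a. The labels' free text names the antibody as one against GFP, while their antibody field reads daf-16.

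DAF-16 is the FOXO transcription factor of C. elegans, held in the cytoplasm by insulin signalling through DAF-2 and AKT kinases and nuclear when that signalling is low. It is best known for its part in long life, dauer formation, metabolism and stress resistance, and its forkhead domain contacts the element in the major groove of DNA. Mutants of daf-2 live long through daf-16, and muscle is one of the tissues in which the factor is found.

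The elements of the 16 strongest such peaks by signal, chromosomes II to X only, are shown with 10 bases on each side because the flanks are compared later. All are read on the TGTTTAC strand 5′ to 3′, come from the WBcel235 reference sequence of RefSeq (ce11), and are named by the nearest protein-coding start. Capitals mark the element.
F22B7.9 (chrIII:8658534-8658560, plus strand): gacagagacgTGTTTACcactatgcag
pqn-62 (chrX:5197582-5197608, minus strand): ttttccttcgTGTTTACcatctgtcta
F13D11.3 (chrX:5812150-5812176, plus strand): gctgcctcgtTGTTTACcgggtttatc
gpcp-1 (chrX:3108783-3108809, minus strand): tgaaaacagtTGTTTACcacgacttcc
F09E10.1 (chrX:1504930-1504956, minus strand): ttttggttcaTGTTTACcagtcacctg
C39H7.4 (chrIV:5604733-5604759, plus strand): agacaattttTGTTTACtttgtggtca
C55A6.10 (chrV:11506641-11506667, minus strand): aaccatgtttTGTTTACaaaaaaatat
wip-1 (chrIII:5018392-5018418, minus strand): tcaaaacgtgTGTTTACtcggcaaaac
aakg-4 (chrX:2316407-2316433, minus strand): aacgtctgccTGTTTACactagatcgc
trp-1 (chrIII:8534784-8534810, minus strand): gacaacaaggTGTTTACaataaatcag
F21C10.10 (chrV:9094464-9094490, plus strand): tgcaaaaagaTGTTTACttctgtctca
ZK617.26 (chrIV:12009428-12009454, plus strand): atgtttcactTGTTTACactttttccc
M60.7 (chrX:8257793-8257819, plus strand): cacctgtctaTGTTTACtcaaatcagt
F40A3.7 (chrV:7908535-7908561, minus strand): ggaaataaaaTGTTTACtcggtaggcg
bath-36 (chrV:15187791-15187817, minus strand): cggactttgtTGTTTACgtcggaaaat
idhg-1 (chrIII:4568601-4568627, minus strand): cattggtttgTGTTTACttctagtcta
The base 2 before the element was A in 1 of these 16, C in 5, G in 5 and T in 5.

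Most of these peaks carried a single element. There were 215 peaks with 1 element and 13 with 2 (5.70%, 3.36 to 9.51), and none had more. Among the 671 pooled candidates outside the IDR list that held the element (of 27437, 2.45%), 14 had 2 or more (2.09%, 1.25 to 3.47). Of the 13 pairs, 5 had both elements on the same strand, 4 faced each other and 4 faced away from each other. The starts of paired elements lay 22 to 132 bp apart, with a median of 72 bp. The summit windows of the 4 strongest pairs on chromosomes II to X follow, plus strand, to show these arrangements, with capitals marking each element.
act-1 (chrV:11082692-11082892, plus strand): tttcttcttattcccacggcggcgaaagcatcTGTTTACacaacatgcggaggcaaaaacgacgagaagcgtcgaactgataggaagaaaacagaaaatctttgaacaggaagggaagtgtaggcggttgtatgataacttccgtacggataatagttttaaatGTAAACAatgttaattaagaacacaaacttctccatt
djr-1.2 (chrV:4055655-4055855, plus strand): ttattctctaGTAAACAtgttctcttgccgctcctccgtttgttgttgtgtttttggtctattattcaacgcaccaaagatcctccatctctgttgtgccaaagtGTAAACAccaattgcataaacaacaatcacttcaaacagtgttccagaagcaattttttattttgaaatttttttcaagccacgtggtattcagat
F46F5.16 (chrII:787696-787896, plus strand): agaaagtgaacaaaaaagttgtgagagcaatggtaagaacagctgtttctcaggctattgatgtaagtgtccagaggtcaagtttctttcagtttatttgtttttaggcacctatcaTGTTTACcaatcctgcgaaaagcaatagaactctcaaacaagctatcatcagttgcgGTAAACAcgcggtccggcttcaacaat
trmt-10C.2 (chrIII:6344798-6344998, plus strand): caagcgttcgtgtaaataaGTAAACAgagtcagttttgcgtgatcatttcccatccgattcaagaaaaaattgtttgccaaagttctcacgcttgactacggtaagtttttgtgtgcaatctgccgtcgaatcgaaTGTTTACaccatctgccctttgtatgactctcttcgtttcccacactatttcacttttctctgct
The act-1 window lay 1740 bp downstream of the start of act-1, an actin gene, and outside it, with signals of 170 in the pooled list, 99.0 in replicate 1 and 80.8 in replicate 2. The djr-1.2 window lay 630 bp upstream of djr-1.2, which encodes a glyoxalase of the DJ-1 family, with signals of 166, 92.9 and 69.5. In both windows replicate 1 gave the higher value. The replicate lists have no stated scale, so here and below a higher value in 1 of them is not read as stronger binding.

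The 241 elements at these peaks were 2.01% of the 11971 copies of the element in the nuclear genome, and 926 copies lay within 100 bp of any pooled candidate. Candidates are all entries of the list called on the pooled replicates, most of them weak. Of 899 nuclear candidates with the element, 228 (25.4%) passed the IDR threshold, beside 8.47% of all 29977 nuclear candidates. The IDR list is part of the rule, so nothing is read from that difference. The weakest peak of the set had a signal of 60.8 and the strongest candidate with the element below the threshold had 60.1.

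The exact element stood above each of its 21 single-base variants in the ratio of its share at IDR peaks to its share at the other candidates. That ratio was 3.67 for the element itself (8.98% against 2.45%), which restates the difference above, so nothing is read from its rank. The IDR peaks are also the strongest of the pooled list, so every ratio sets strong peaks beside weaker ones. The highest ratio of a variant was 2.01, for TGTTGAC. The ratio was 1.33 for the forkhead-type variant TATTTAC. It was lowest, 0.423, for TGGTTAC, which was in 11 IDR windows. In absolute terms a variant could be more frequent than the element: TGTTTTC was in 431 IDR windows (17.0%) and in 8.77% of the other candidates.

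The rule admits no element centred over 97 bp from the summit, so closeness to the summit is partly set in advance. The nearest element was centred a median of 35 bp away (quartiles 18 and 60 bp), and 150 of 241 elements (62.2%, 56.0 to 68.1) were centred within 50 bp. Measured from the summits of each replicate alone, the median was 41 bp in replicate 1 (219 peaks) and 35 bp in replicate 2 (225 peaks). In the other candidates with the element it was 44 bp, with 57.4% of elements (53.6 to 61.0) within 50 bp. The element was on the plus strand of the genome in 111 of 241 cases, and the median signed distance was -4 bp.

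The same search was widened to 500 bp so that the density near the summit could be set beside the density farther out. At nuclear IDR peaks the 5 central bins of 20 bp averaged 11.8 elements per 1000 summits, against 3.46 in the bins from 200 to 500 bp, a ratio of 3.42. In the other candidates the values were 2.84 and 2.22, a ratio of 1.28. The fullest bin at IDR peaks, 30 to 11 bp left of the summit, held 41 elements or 16.1 per 1000 summits.

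**Figure D1:**
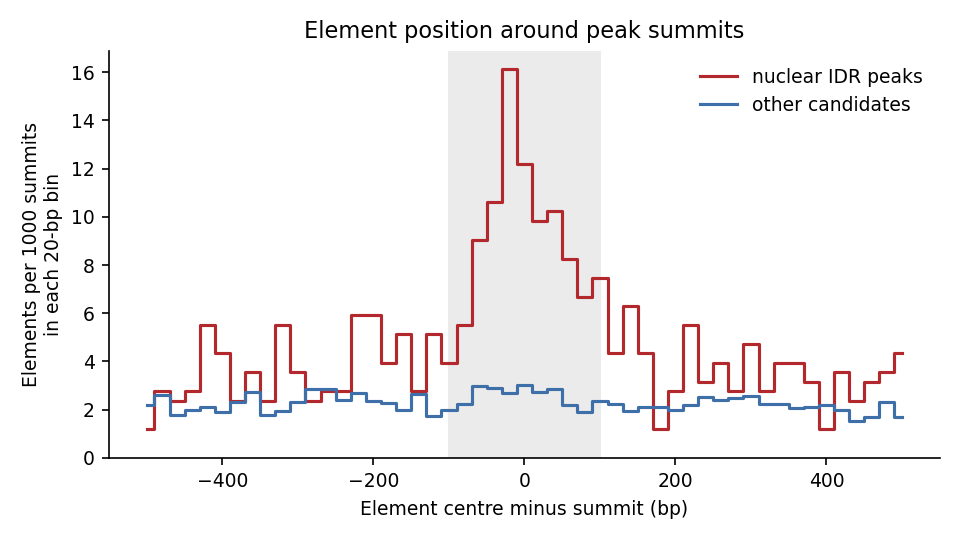
Elements per 1000 summits in bins of 20 bp (y axis) against the centre of the element minus the summit in bp (x axis), for the 2540 nuclear IDR peaks and the 27437 other candidates; grey marks the 100 bp window that chose the peaks. The IDR line reaches 16.1 left of the summit and averages 3.46 beyond 200 bp, and the other line stays between 1.53 and 3.03.

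The window edge passed through a continuous range of distances. The elements nearest to a summit belonged to Y71H2AM.11 at 0 bp and to cri-1, nhr-1, taf-3 and R06C1.4, all at 1 bp. The farthest inside were at hsp-25, a small heat shock protein gene (95 bp), clp-1, a calpain gene (95 bp), and K02A6.3 (97 bp). Just outside were a second peak near hsp-12.6, a small heat shock protein gene (98 bp, signal 63.7), one near icl-1, whose enzyme works in the glyoxylate cycle (99 bp, signal 161), and one near cpi-1, a cystatin gene (100 bp, signal 80.8).

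The bases beside the element differed most from the other elements at the position 2 bases before it. Read on the TGTTTAC strand, A stood there in 32 of 241 elements at these peaks (13.3%, 9.56 to 18.1), in 31.1% of the 685 elements at the other candidates (27.7 to 34.7) and in 34.7% of all elements of the nuclear genome. C stood there in 31.5%, 18.4% and 16.5%, in the same order. Of the 80 combinations of 20 positions and 4 bases, these were the largest and the second largest differences between the peaks and the other candidates, and they are described because they were the largest. Next came T at 3 bases after the element (20.7%, against 32.8% and 34.9%), C at 4 bases before it (29.0%, against 18.4% and 15.1%) and G at 3 bases after it (28.6%, against 20.1% and 18.5%).

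The share of A at that position was also counted in each replicate list. Among the 2540 strongest nuclear peaks of each list, it was 14.7% of elements in replicate 1 (10.7 to 19.8) and 12.0% in replicate 2 (8.45 to 16.8). At the other candidates of the same lists it was 27.6% and 31.4%. Of nuclear IDR peaks, 95% had a summit in both lists, and a shared locus has the same sequence in each. The replicate counts are therefore not a second observation. The share of A was 12.7% for elements within 50 bp of the summit and 14.3% for those farther out. For intergenic elements alone it was 12.8%, beside 27.1% at the other candidates and 33.0% in the genome. At elements of the IDR peaks above the median signal it was 10.8% (6.65 to 17.0), and below it 16.7% (10.7 to 25.1), 2 intervals that overlap.

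**Figure D2:**
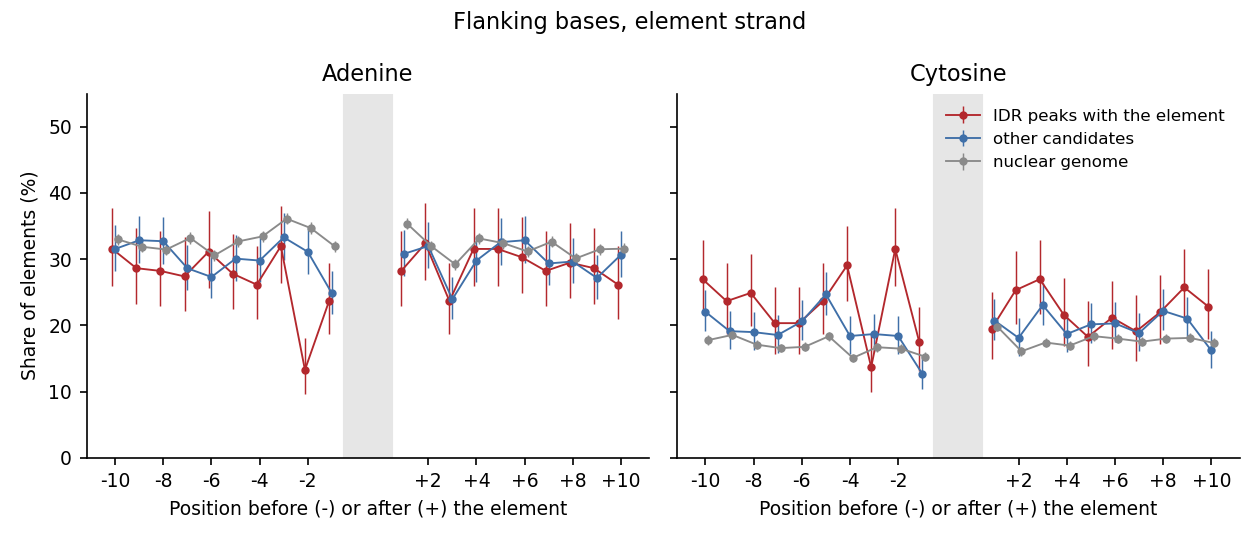
Share of elements in percent (y axis) with adenine (left) or cytosine (right) at each of 10 positions before and after the element (x axis), for the IDR peaks with the element, the other candidates and the nuclear genome; points are shares, bars Wilson 95% intervals, and the grey band stands for the element. At position -2 the adenine share is 13.3% at the peaks and 31.1% at the other candidates, and the cytosine share is 31.5% and 18.4%.

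Counted from the genome, 32 of 4152 elements with A at this position lay at a nuclear IDR summit (0.771%, 0.546 to 1.09). The share was 1.96% with T (74 of 3770), 2.84% with G (59 of 2076) and 3.85% with C (76 of 1973, 3.09 to 4.79). The interval for A overlapped none of the other 3, but the position was picked as the largest difference in these data. These are the same 32 elements counted from another base, so the count is not a second observation. Base composition moved with group membership too: the summit windows of these peaks had a median GC content of 40.3%, against 43.3% at the other IDR peaks, 38.3% at the other candidates and 36.3% at the candidates with the element. The part of base composition in the flank differences was not tested. The AT share of elements at these peaks was 44.0% at 2 before and 44.4% at 3 after the element, and between 54.4% and 69.3% at the other 18 positions.

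Other sequences in the same windows were about as frequent as at the other IDR peaks. GAGAGA, searched on both strands as all these motifs, was in 93 of 228 windows (40.8%, 34.6 to 47.3), in 41.3% of the other IDR windows and in 16.1% of the other candidates. CAGCTG, an E-box of the kind bound by muscle bHLH factors, was in 27 windows (11.8%, 8.27 to 16.7), against 10.4% and 5.84%. TGATAA, a sequence read by factors with zinc fingers of the GATA family, was in 17.1%, 14.9% and 16.3%. CTTATCA, the DAF-16 associated element, was in 4.82%, 3.68% and 3.37%. Its reverse complement contains TGATAA, so each window with CTTATCA is also counted for TGATAA. The reversed element CATTTGT, a control with the same composition, was in 6.14%, 5.36% and 4.55%.

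By position in genes, the summits were mostly outside gene bodies. Of the 228, 140 were intergenic (61.4%, 54.9 to 67.5), 67 intronic (29.4%), 10 in a 5′ UTR, 8 in a coding exon and 3 in a 3′ UTR. The other IDR peaks were 64.2% intergenic and 26.9% intronic. A promoter window, from 1000 bp before to 200 bp after an annotated transcript start of any gene, held 146 of the summits (64.0%, 57.6 to 70.0), against 67.0% of the other IDR peaks and 41.8% of the other candidates. For starts of protein-coding transcripts the shares were 49.1%, 46.5% and 30.5%.

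Of all genome elements, those in a 5′ UTR were the most often at a nuclear IDR summit, 11 of 167 (6.59%, 3.72 to 11.4). How often any sequence of a class lies at an IDR summit was not counted, so no preference of the element is read from these shares. Summits in a 5′ UTR were 4.39% of the peaks with the element (2.40 to 7.88) and 2.85% of the other IDR peaks (2.25 to 3.62). Of genome elements elsewhere, the share at an IDR summit was 2.57% for intergenic elements (148 of 5750) and 1.72% for intronic ones (71 of 4139). It was 0.765% in 3′ UTRs and 0.525% in coding exons (8 of 1523, 0.266 to 1.03). By chromosome the share was lowest on IV, 1.17% of 2222 elements (0.800 to 1.71), and V, 1.35% of 2590. It was highest on III and I, where it was 2.87% and 2.86%. The X chromosome held 71 of the 228 peaks (31.1%, 25.5 to 37.4) and 28.6% of the other IDR peaks. The share of a chromosome's IDR peaks with the element ran from 6.70% on IV to 10.4% on I, with intervals that overlapped.

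**Figure D3:**
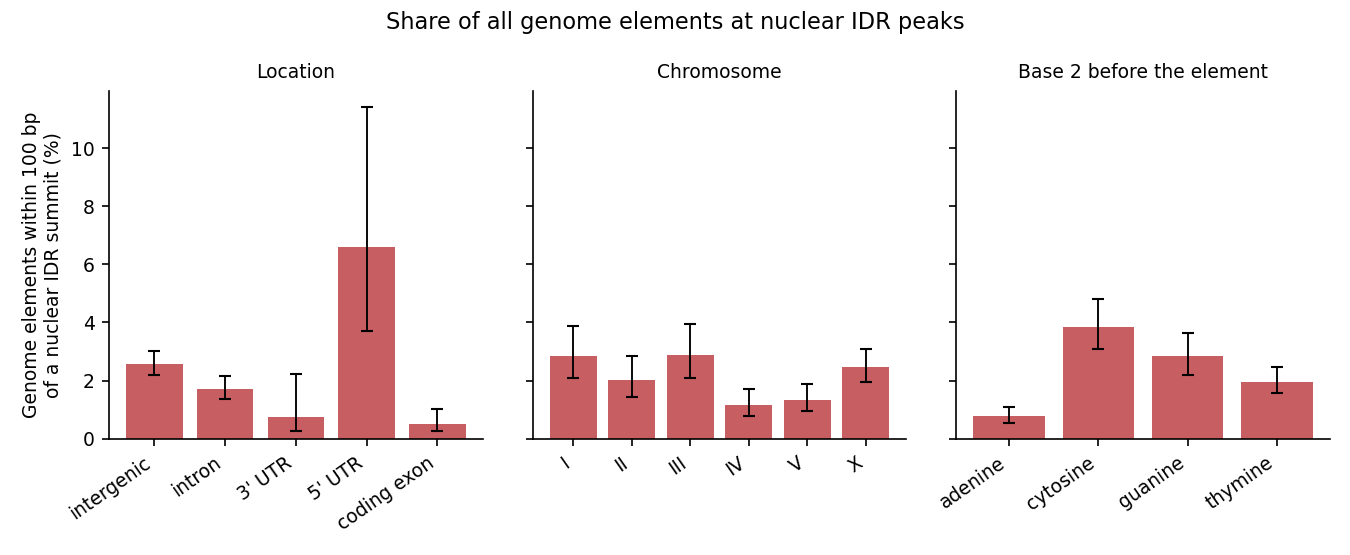
Percent of all copies of the element in the nuclear genome that lay within 100 bp of a nuclear IDR summit (y axis, bars from 0, error bars Wilson 95% intervals) by location, by chromosome and by the base 2 before the element (x axes). The bar for 5′ UTRs reaches 6.59% and the bar for adenine 0.771%.

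The nearest start of a protein-coding gene, taken at its outermost 5′ end, was a median of 1148.5 bp from the summit, and 81 of 228 summits were over 2000 bp away. The summit lay upstream of that start in 134 cases. With promoter windows drawn at that outermost end, 93 peaks lay in the window of a protein-coding gene, and 22 of them lay in windows of genes on both strands. These 93 peaks touched 117 genes, 9.37% of the 1249 protein-coding genes with any IDR peak in the window (7.87 to 11.1), and no gene had more than 1 such peak. This 9.37% is the value beside which the gene lists are read.

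Among known DAF-16 targets of the class raised in daf-2 mutants, 8 of 28 genes had an IDR peak in the window and 3 of those had one with the element (37.5%, 13.7 to 69.4). They were tts-1, djr-1.2 and hil-1. The 9.37% counts protein-coding genes alone, whereas tts-1 is noncoding, so the 2 shares have unlike bases. The list was also chosen with earlier results of these data known, so nothing is read from its share. Among genes annotated as ncRNA the share was 7.43%. The gene tts-1 makes a long noncoding RNA known to be abundant in daf-2 mutants. Its peak on X at 1504938 was the fifth strongest with the element, with signals of 416 pooled, 211 in replicate 1 and 206 in replicate 2, and its element was centred 5 bp from the summit. The peak of djr-1.2 had 2 elements, one of them 8 bp from the summit. The peak of hil-1, a linker histone gene, lay 948 bp upstream, had signals of 126, 71.8 and 56.8, and its element was 89 bp from the summit. None of the 15 targets of the opposite class had a candidate in the window.

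Several genes often used as markers of DAF-16 had no such peak. At sod-3, the mitochondrial superoxide dismutase gene, 2 elements lay in the promoter window and a candidate held an element 63 bp from its summit, but its signal was 24.4 and it was not in the IDR list. At daf-16 itself a candidate with an element 35 bp from the summit had a signal of 44.0 and was not in the list either. The candidates at mtl-1, a metallothionein gene (15.1), and daf-2 (9.95) were weaker and had no element within 100 bp of the summit. Each of these promoter windows held 1 element. The element nearest to the summit was 520 bp away at mtl-1 and 267 bp away at daf-2. The gene hsp-12.6 (148) had an IDR peak without the element. Apart from these markers, myo-3 (169) and unc-54, which encodes a myosin of muscle (91.5), also had IDR peaks without it. The transgene of the strain carries a myo-3 promoter too, and how much of the 169 came from that copy was not tested.

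Of the listed genes of carbon metabolism, 3 of the 19 with an IDR peak had the element (15.8%, 5.52 to 37.6). The list leaves out idhg-2, another isocitrate dehydrogenase subunit gene, which had a peak with the element 81 bp upstream (pooled signal 63.1). At idhg-1, which encodes a subunit of isocitrate dehydrogenase of the citric acid cycle, the signals were 240 pooled, 141 in replicate 1 and 100.3 in replicate 2. This peak was shared with mlcd-1, a malonyl-CoA decarboxylase gene on the other strand. At ipgm-1, a phosphoglycerate mutase gene of glycolysis, they were 77.3, 36.9 and 41.0, and at fbp-1, whose enzyme works in gluconeogenesis, 60.8, 31.1 and 30.0. The fbp-1 gene was also nearest to a second peak with the element, 1470 bp upstream, with a signal of 78.2. The listed value of the idhg-1 peak was higher in replicate 1, and those of the other peaks differed less between replicates or were higher in replicate 2. Outside the promoter windows at outermost starts, peaks with the element had pck-1, another gluconeogenic gene (signal 75.9), and cts-1, which encodes citrate synthase (77.5), as the nearest start. Of lipid metabolism, 1 of 7 genes had the element, elo-1, a fatty acid elongase gene (72.0). The enzyme gene ech-1.2, for the mitochondrial trifunctional enzyme of fatty acid oxidation, held a peak in an intron (245).

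The shares for genes of protein synthesis and folding could not be told from that of all genes. Among 31 cytosolic ribosomal protein genes with an IDR peak, 1 had it, rps-8 (3.23%, 0.572 to 16.2, signal 76.2). Among translation factors it was 1 of 12, eef-1A.2, an elongation factor gene (122), and among chaperones 1 of 22, hsp-70, the heat-inducible Hsp70 gene. The peak of hsp-70 lay 155 bp upstream of its start, in an intron of uggt-2, and had signals of 357, 199 and 161. None of 12 respiratory chain genes, 5 proteasome genes and 8 autophagy and lysosome genes with an IDR peak had the element. The intervals of all these shares include 9.37%.

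Body wall muscle is the tissue in which the tagged protein was made. Of 73 listed genes of body wall muscle, 26 had an IDR peak in the promoter window and 0 of them a peak with the element, which allows a share of up to 12.9% (Wilson), a limit above the 9.37% of all genes. The element did occur inside muscle genes: a peak of signal 272 (128 in replicate 1, 154 in replicate 2) lay in an intron of unc-22, which encodes the giant muscle protein twitchin. No gene of the lists for intestine and pharyngeal muscle had an IDR peak in the window. Of hypodermis genes none did, and of neuron and germline genes 1 each did, without the element.

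At the regulators named next, the peaks with the element lay outside the promoter windows drawn at the outermost start of a protein-coding gene, though several lay in the window of another transcript start or of a noncoding gene. They were picked with their values in view and are named by the gene that holds the peak or, between genes, by the nearest start. The introns of fkh-7, a forkhead factor gene, held 3 such peaks. The strongest, named C39H7.4 among the printed elements, had a signal of 410 (198 and 218 in replicates 1 and 2). The second had 210 (97.9 and 114) and the weakest 89.5, with 12.8 in replicate 1 and 38.0 in replicate 2. A peak in an intron of aakg-4, for a gamma subunit of the energy sensor AMP-activated kinase, had 334 (157 and 177). Weaker peaks lay 8319 bp upstream of aakg-1 (137) and in a 5′ UTR of aakg-5 (66.6). The gene hlh-30, the C. elegans TFEB that controls autophagy genes, held 2 intronic peaks with the element (75.1 and 70.9). One peak lay in an intron of daf-12, the nuclear hormone receptor of the dauer decision (152). An intergenic peak lay 1302 bp downstream of the start of mxl-3, a bHLH factor gene (133). Another lay 8854 bp upstream of lin-39, a Hox gene (198), in the windows of mir-231 and linc-57. The kinase gene akt-1, whose product phosphorylates DAF-16, was nearest to 2 peaks upstream (97.7 and 78.9). None of the 9 nuclear hormone receptor genes and 6 homeobox or bHLH genes with an IDR peak in the promoter window had the element there. The same held for 6 genes of the insulin pathway and DAF-16 regulators, 3 of TOR and AMPK signalling and 1 forkhead gene. By nearest start the peaks with the element belonged to 219 of 19973 protein-coding genes. Of these, 1 was in the insulin list, 4 in the TOR and AMPK list and 2 in the forkhead list.

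The 4 strongest peaks with the element lay outside the promoter windows of protein-coding genes at their outermost start. The strongest was intergenic, 4663 bp from F22B7.9, which encodes an uncharacterized protein, with signals of 627 pooled, 293 in replicate 1 and 333 in replicate 2. The next was in an intron of pqn-62 (556, 237 and 319), followed by an intergenic peak whose window held 2 noncoding RNAs near F13D11.3 (428, 215 and 216), and a coding exon of gpcp-1, for a putative glycerophosphocholine phosphodiesterase (417, 215 and 202). Replicate 2 was higher at the first 3 of these and replicate 1 at gpcp-1.

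In promoters, wip-1 and larp-1, an actin regulator and an RNA-binding protein gene on opposite strands, shared a peak of signal 356 (170 and 185 in replicates 1 and 2). The peak of trp-1, a TRP channel gene, had 319 (139 and 183). At bath-36, a BTB and MATH domain gene, and cyn-7, a cyclophilin gene, it was 246 (116 and 132). At sqrd-1, whose enzyme oxidises sulfide, it was 227 (131 and 94.2), with the summit in the 5′ UTR, and at R05D7.2 it was 231 (113 and 117). The remaining peaks among the 25 strongest lay in introns of C55A6.10 (360), F40E3.5 (340) and T28F4.1 (288) or between genes near F21C10.10 (279), M60.7 (251), F40A3.7 (248), frm-1 (232) and hint-3 (217). Single genes with the element in other lists were col-165, a collagen gene (70.1), and clec-126, a C-type lectin gene (170). The element at clec-126 lies inside a tRNA gene in repeated sequence and belongs to the tRNA genes described next.

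Noncoding genes were counted in the same windows. A peak with the element lay in the window of 53 of the 713 genes annotated as ncRNA with an IDR peak (7.43%), 2 of 27 miRNA genes (mir-231 and mir-55b) and 2 of 17 lincRNA genes (linc-57 and linc-33). For tRNA genes it was 19 of 231 (8.23%), at 14 peaks. None of the 97 snoRNA genes and 22 snRNA genes with an IDR peak had the element, which allows shares of up to 3.81% and 14.9% (Wilson).

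In 8 of the 228 peaks the element was part of a tRNA gene. The nuclear genome has 34 genes for tRNA-Thr in the RefSeq annotation, and 22 of them hold the element, in each case as GTAAACA from base 34 of the gene on its own strand. No other kind of tRNA gene holds it. An IDR summit lay in or within 100 bp of 8 of the 22 (36.4%, 19.7 to 57.0) and of 189 of the 590 other tRNA genes (32.0%, 28.4 to 35.9). The 8 peaks had pooled signals from 66.9 to 170, and their elements had 2 different sequences over 27 bases, of which the strongest, at the clec-126 peak on chromosome II, is shown on the TGTTTAC strand because it occurs in copies.
tRNA-Thr (chrII:3519108-3519134, plus strand): agcgaccttcTGTTTACtagacagacg
All 8 were among the 13 peaks whose summit window holds a stretch of 31 bases that occurs elsewhere in the genome. How the authors placed reads from repeated sequence is not stated in the labels or file headers. Such sequence was in 5.70% of the peaks with the element (3.36 to 9.51) and in 12.2% of the other IDR peaks. In the 8 tRNA elements the base 2 before was never A, and without all 13 peaks the share of A there was 14.0% (10.1 to 19.1).

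The signal of the deposited lists is the authors' own value for each peak and has no stated scale. Groups of peaks are compared only within a list, and replicate values are set side by side as a description. In the pooled list the 228 peaks had a median of 103 (95% interval over peaks 94.4 to 112, range 60.8 to 627). The other nuclear IDR peaks had 92.9 (90.4 to 95.2, range 60.5 to 865). In replicate 1 the medians were 50.4 (47.3 to 54.6) and 46.1 (45.0 to 47.3), and in replicate 2 54.8 and 49.8. The difference of the median log2 signal, 0.15 in the pooled list, was 0.13 and 0.14 in the strongest peaks of replicates 1 and 2, small beside the spread between peaks. Among the IDR peaks above the median signal alone it was 0.03. The upper quartile of all nuclear IDR peaks by signal held 68 of the 228 (29.8%, 24.3 to 36.1), the lower quartile 48 (21.1%, 16.3 to 26.8), and the top decile 30 (13.2%, 9.37 to 18.2).

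**Figure D4:**
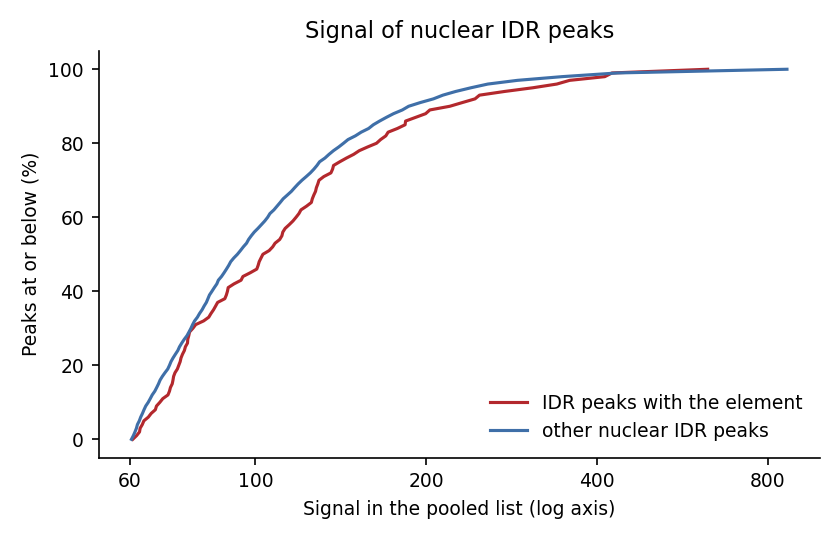
Percent of peaks at or below a signal (y axis) against the signal in the pooled list (x axis, log scale) for the 228 nuclear IDR peaks with the element and the 2312 others. The curve of the peaks with the element lies mostly to the right, with a median of 103 against 92.9, and meets the other curve near its lower quartile and at the highest signals. The curves start at 60.8 and 60.5.

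By number and place of the element, the medians of the pooled signal had overlapping intervals. The median was 103 with 1 element and 104 with 2 (74.1 to 166, 13 peaks). It was 89.1 (78.2 to 108) where the element lay within 20 bp of the summit, 113 (94.4 to 126) at 21 to 50 bp and 103 (89.3 to 123) farther out, with overlapping intervals. It was 103 with GAGAGA in the window and 104 without. Peaks on X had a median of 94.3 (83.3 to 111) and those on autosomes 110 (97.7 to 119).

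A summit within 100 bp was found in both replicate lists for 217 of the 228 peaks (95.2%, 91.6 to 97.3), beside 95% of all 2540 nuclear IDR peaks. Replicate 1 had no summit that near for 9 peaks and replicate 2 for 3, among them 1 peak near exc-13 with none that near in either list. Within 200 bp all 228 peaks had a summit in both lists. The hsp-25 peak, with a pooled signal of 157 and 95.6 in replicate 2, was the strongest without a summit within 100 bp in replicate 1. Over the 217, log10 signals of the replicates had Pearson's r of 0.75 and Spearman's rho of 0.73, given as a description across peaks that share both libraries. Replicate 1 was higher at 88 peaks, and the ratio of replicate 1 to replicate 2 had a median of 0.912 (quartiles 0.747 and 1.17). The widest gaps were at rpy-1 (13.0 and 66.2) and tspo-1 (12.9 and 58.7) on one side and at cal-1 (55.4 and 8.91) on the other, all weak peaks of pooled signal between 62.6 and 71.6.

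**Figure D5:**
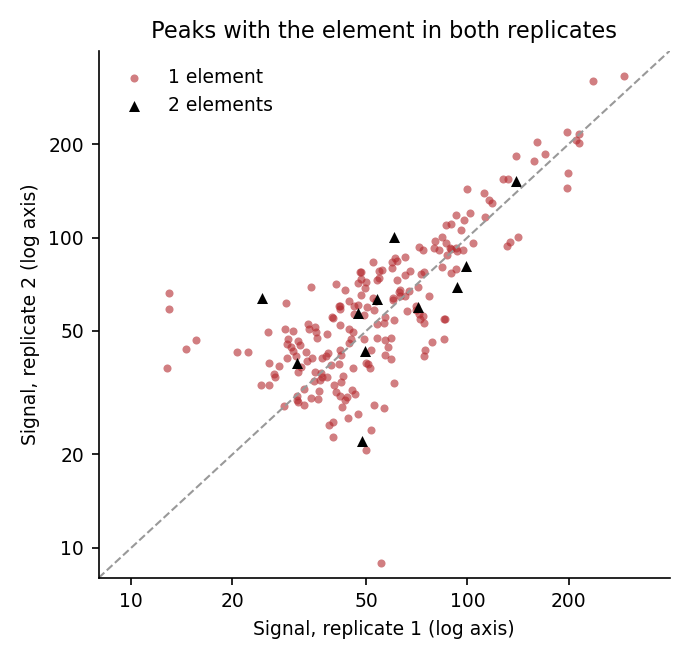
Signal in replicate 2 (y axis, log scale) against signal in replicate 1 (x axis, log scale) for the 217 peaks with the element matched within 100 bp in both replicate lists, by number of elements. The dashed line marks equal signal. Replicate 1 is higher at 88 of the 217, and the strongest peaks lie near the line while several weak ones lie far from it.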

How the data were processed

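The 2 biological replicates of the ChIP-seq formed 1 group. Per the file headers and lists, the authors called peaks on ce11 against a control, on each replicate and on both pooled, and deposited an IDR list. Which aligner and caller they used, and which IDR threshold, is not stated in those sources. The signal in the deposited lists is the authors' enrichment value per peak. The deposited lists also give the summit as another value, bp from the peak start. Read counts were not used here, so depth and counting error per peak are unknown.

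Coordinates are 1-based ce11 (WBcel235, RefSeq sequence). Genes came from Ensembl release 115 and tRNA products from RefSeq. Other candidates are pooled peaks over 100 bp from any IDR summit. Replicate summits were matched within 100 bp. Intervals of shares are Wilson 95% intervals over peaks, genes or elements, and intervals of medians come from binomial ranks. Neighbouring peaks are not replicates of a condition, so no test was run and differences between groups of peaks are descriptions.

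Named genes were the nearest starts and window genes of the 25 strongest peaks, up to 4 genes per list, 10 genes set by name and the peaks at both ends of the distance range. Gene lists were written from general knowledge of the genes. Members, lists and these rules were chosen with earlier results of these data known. Alternatives changed the window, the match distance, the promoter window, the strength of peaks, repeated sequence and the replicate. The element search was tested on simulated sequence. Python 3.11.15, numpy 2.4.6, pandas 2.3.3, scipy 1.17.1 and matplotlib 3.10.9 were used. The ce10 lists were not used, since the reference is ce11.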

Additional observations from a re-analysis of the deposited data

How the results depend on the processing

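Of 68 alternatives to 17 results, 18 moved a share or median beyond its interval or spread, or a count by more than 1.5 times, and 0 changed sign. Most that moved followed from the alternative's own construction. With the element within 50 bp of the summit the set held 138 peaks, 5.43% of nuclear IDR peaks and 1.31% of other candidates, 2.90% had 2 or more elements, and the median distance was 21 bp. With 200 bp the set held 316 peaks, the shares were 12.4% and 4.49% and the median distance 57 bp. Of the IDR peaks above the median signal, 10.3% held the element. Summits matched within 50 bp were in both replicates for 80.7% of the peaks and within 200 bp for 100%. A promoter window held 49.1% of them when drawn from 500 bp before to 100 bp after the start or over protein-coding starts alone, and 76.3% when drawn from 2000 bp before to 500 bp after. The shorter window touched 80 protein-coding genes and the longer 158, instead of 117. Above the median signal the log2 difference in signal was 0.03, instead of 0.15. By nearest start 37 listed genes had such a peak, instead of 13 by promoter window. With 1 replicate left out, the median signal was 50.4 to 54.8 on the lists' own scales, and the share of other candidates with the element 2.53% to 2.69%; the cause was not tested. The share of A 2 bases before the element, for which 6 alternatives were chosen after seeing the data, lay between 10.8% and 14.7%. No paired analysis was possible because there is 1 group. With depth unknown and 2 replicates, peaks near the IDR threshold are the least certain.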
